A study of Mus musculus with 75 samples.

Results

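Ribosome biogenesis genes and Myc were followed through a time course of tumor necrosis factor (TNF) in mouse fibroblasts with or without the NF-kB subunit RelA. The 38 genes comprised Myc and 37 genes in 6 roles: RNA polymerase I transcription (6), nucleolar chaperones and scaffold (5), small nucleolar RNP (snoRNP) and ribosomal RNA modification (8), the small subunit processome (7), large subunit assembly (7) and small subunit maturation (4). They were 38 of the 45706 gene entries counted. The set was chosen because Polr1b rose strongly at 8 h of TNF in cells without RelA, so the values of the empty-vector cells at 8 h are given below as a description, with no test.

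Ribosome biogenesis starts in the nucleolus, where RNA polymerase I transcribes the long ribosomal RNA precursor. SnoRNPs modify that RNA, the small subunit processome and the large subunit assembly factors fold and cut it, and late factors finish each subunit in the nucleoplasm and cytoplasm. Myc is a transcription factor that is known to activate many of these genes, often through the E-box CACGTG, and is itself an early gene of the response to growth factors and cytokines. RelA activates inflammatory genes after TNF through C-terminal transactivation domains called TA1 and TA2.

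Polyadenylated RNA was sequenced from C57BL/6 mouse embryonic fibroblasts that were all p53-/-, crel-/- and rela-/- and all carried the retroviral vector pBABE-puro, either empty (EV) or with RelA-WT or a RelA mutant. All cells were kept overnight in 0.5% serum and sampled at 0 h or after 0.5, 1, 3 or 8 h of 10 ng/ml TNF. 2 libraries per time were made for RelA-WT, RelA-dTAD, RelA-dTA1 and EV, the first replicate in set 1 and the second in set 2. RelA-DB and RelA-dCterm had 1 library per time in set 1. Set 2 had 1 library per time of RelA-TA2_S467A and of RelA-TA2_CI and RelA-TA2_CI_S467A, the last pair each also with dTA1 (RelA-TA2_CI-dTA1, RelA-TA2_CI_S467A-dTA1). The labels give the mutants by name only. Whether replicates came from different cultures is not said, and the p-values therefore reflect library-to-library spread, which may be technical. Cells kept for the same times without TNF are not analysed here, so each change includes any change with time alone. Because the samples are bulk RNA, the share of cells that express a gene and its level per cell cannot be told apart. Levels are relative to the other RNA of a library, so a change in total RNA per cell would not show.

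Depth ran from 4422396 to 6915919 reads assigned to genes per library in set 1 and from 10440202 to 22908738 in set 2, over 75 libraries. Rela was listed at 16.2 to 27.2 CPM (reads scaled to a common library total) in the 10 EV libraries and at 1144 to 1706 CPM in the 10 RelA-WT libraries. At 8 h Rela was at 3460 and 6004 CPM in the RelA-dTAD libraries, above RelA-WT, and the part of that difference in the results below was not tested. Fibroblast markers summed to 35052 to 55265 CPM in every library. Of the other cell types checked, macrophage markers summed to at most 5.90 CPM in any library and muscle markers to at most 8.80. The summed level of 6 epithelial markers was 70.4 to 107.6 CPM in the EV and RelA-dTAD libraries at 8 h against 17.5 to 19.4 CPM in RelA-WT and RelA-dTA1, and 17.3 to 26.5 CPM at 0 h in the 4 constructs. Most of that was Krt19, at 57.4 to 86.0 CPM, while Epcam was at most 1.63 CPM in these libraries. None of the 6 was at 0 in all libraries, and Cldn4 was at 0 in the RelA-WT and RelA-dTA1 libraries at 8 h. Endothelial markers summed to 50.6 to 59.6 CPM in EV and RelA-dTAD at 8 h and to 35.1 to 41.8 CPM in RelA-WT and RelA-dTA1, and 2 of those 5 markers were under 1 CPM in every library of these groups. Their part in the results was not tested.

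Before TNF the members spanned a wide range of levels. In RelA-WT at 0 h, the level per kilobase of gene length was highest for Npm1, a nucleolar histone and ribosome chaperone, at 122 CPM per kb, followed by Ncl (nucleolin) at 76.4 and Mybbp1a at 45.2 CPM per kb. Myc stood at 21.0 CPM per kb, and the lowest levels were those of Polr1b (4.36), Polr1e (3.70) and Wdr12 (2.73 CPM per kb). Lengths are those of the deposited tables, and the order depends on them. Wdr12, with a listed length of 11955 bases, was at 32.6 CPM before division by length. That was above Polr1b at 25.3 and Polr1e at 14.4 CPM. Fbl, the rRNA methyltransferase of the box C/D snoRNPs, was at 4.95 and 6.84 CPM in the 2 RelA-WT libraries, or 5.09 CPM per kb. Several members differed between the sets at 0 h in the same direction in all 4 replicated constructs. Rrp12, a factor in export and maturation of the small subunit, was at 15.9 and 23.9 CPM in sets 1 and 2 of EV, 14.1 and 24.3 in RelA-WT, 16.4 and 22.5 in RelA-dTA1 and 13.7 and 22.9 in RelA-dTAD, lower in set 1 throughout. Rrs1 and Ddx21 showed the same order of sets at 0 h in each of the 4.

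All 38 members passed the filter on low counts and were tested among 13665 genes with edgeR's quasi-likelihood test and Benjamini-Hochberg adjustment over all of them. At 0 h, 0 of 38 members differed at an adjusted p under 0.05 between EV and RelA-WT, where 0% of all genes were called higher and 0.563% lower. At an unadjusted p under 0.05 the count was also 0, and DESeq2 called 0. Between RelA-dTAD and RelA-WT at 0 h the 3 counts were 0 too, with 0% of all genes higher and 0.0293% lower. Between RelA-dTA1 and RelA-WT they were 0, 1 (unadjusted, higher) and 0 (DESeq2), with 0% of all genes called in either direction. The 1 was Polr1b, higher in RelA-dTA1 by 0.23 ± 0.10 on the log2 scale. A p that misses the threshold does not show that the levels were equal.

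The promoters of the members are described here for the Myc-binding E-box. RefSeq promoters (GRCm38.p6, 250 bases before to 50 after the annotated start) were available for 32 of the 38 genes as 39 entries, with none for Myc, Bop1, Fbl, Npm1, Rrp12 and Rrs1. The palindrome CACGTG, which reads the same on both strands, was found in 8 of 39 entries (20.5%), against 7.15% of all 32841 promoters. The kappaB motif, searched on both strands, was in 1 of 39 (2.56%), that of Tsr1, against 4.51% of all promoters. The CACGTG promoters were those of Ltv1, Mybbp1a, Nop2, Pes1, Rrn3, Tsr1, Utp20 and Wdr43, which include members of all 6 roles other than Myc. All promoters were taken, without limiting them to genes expressed here or matching their base content. The difference in these shares was not tested. A match describes the letters in this window only. Rrn3 (the initiation factor that links RNA polymerase I to its promoter) is printed because it has 2 copies. Nop2 (an rRNA methyltransferase) and Wdr43 (a processome subunit) are examples with 1 copy. Polr1b (the second largest subunit of RNA polymerase I) is the gene whose rise chose the set, with no copy. All of these printed genes were called for a larger rise in RelA-dTAD than in RelA-WT at 8 h (below). Ltv1, Pes1 and Utp20, which have CACGTG too, were not called in the main fit. Whether the motif goes with that rise was not tested. Capitals mark CACGTG.
Rrn3, chr16:13780449-13780748, plus strand: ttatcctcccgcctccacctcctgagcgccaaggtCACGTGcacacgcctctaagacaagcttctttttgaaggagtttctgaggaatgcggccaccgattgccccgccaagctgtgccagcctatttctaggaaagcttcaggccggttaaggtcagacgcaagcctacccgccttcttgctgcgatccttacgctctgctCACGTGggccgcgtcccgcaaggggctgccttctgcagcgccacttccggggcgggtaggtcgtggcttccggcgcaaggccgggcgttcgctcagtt
Nop2, chr6:125131633-125131932, plus strand: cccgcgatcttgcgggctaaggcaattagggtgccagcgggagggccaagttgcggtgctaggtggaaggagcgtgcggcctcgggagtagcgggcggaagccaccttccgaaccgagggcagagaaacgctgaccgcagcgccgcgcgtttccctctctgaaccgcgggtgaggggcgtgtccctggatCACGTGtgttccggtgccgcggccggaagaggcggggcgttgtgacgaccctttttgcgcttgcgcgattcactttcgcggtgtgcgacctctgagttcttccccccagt
Wdr43, chr17:71615965-71616264, plus strand: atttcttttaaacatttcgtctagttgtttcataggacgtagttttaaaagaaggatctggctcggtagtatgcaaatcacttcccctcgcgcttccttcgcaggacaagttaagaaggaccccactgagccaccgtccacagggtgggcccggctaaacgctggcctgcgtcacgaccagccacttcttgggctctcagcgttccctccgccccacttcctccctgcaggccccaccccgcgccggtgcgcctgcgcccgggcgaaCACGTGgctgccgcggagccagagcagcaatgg
Polr1b, chr2:129100746-129101045, plus strand: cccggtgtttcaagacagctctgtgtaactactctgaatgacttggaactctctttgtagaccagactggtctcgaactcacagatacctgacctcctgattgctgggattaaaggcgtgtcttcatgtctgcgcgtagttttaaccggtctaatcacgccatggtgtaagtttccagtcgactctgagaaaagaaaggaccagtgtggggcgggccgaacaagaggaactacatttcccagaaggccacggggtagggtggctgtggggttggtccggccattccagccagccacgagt
In Rrn3 the copies start 215 and 48 bases before the annotated start, in Nop2 60 bases before it, and in Wdr43 18 bases after it.

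Myc (chromosome 15, 61985341 to 61990374, mm10, plus strand) was the only member that had risen at 0.5 h, and it rose in all 4 replicated constructs, with and without RelA. In EV its level was 56.7 and 46.8 CPM in sets 1 and 2 at 0 h, 119.5 and 139 CPM at 0.5 h and 162 and 105 CPM at 1 h. In RelA-WT it was 64.2 and 51.9 CPM at 0 h, 139 and 153 at 0.5 h and 148 and 113 at 1 h. In RelA-dTA1 the values were 57.5 and 49.4, then 137 and 127, then 164 and 101 CPM. In RelA-dTAD they were 61.9 and 45.0, 112 and 132 and 142 and 97.6 CPM. Every library at 0.5 and 1 h was above every library at 0 h. The log2 changes at 0.5 h were 1.34 ± 0.23 (SE) in EV, 1.34 ± 0.23 in RelA-WT, 1.31 ± 0.23 in RelA-dTA1 and 1.21 ± 0.23 in RelA-dTAD, with adjusted p values of edgeR's test of 0.00259, 0.00127, 0.00240 and 0.00887.

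With Myc, 1 of 38 members was called higher and 0 lower at 0.5 h in each construct, where 0.402% of all genes in EV, 0.776% in RelA-WT, 0.615% in RelA-dTA1 and 0.439% in RelA-dTAD were called higher, and 0%, 0.0366%, 0.0146% and 0% were called lower in that order. At 1 h the count was again 1 higher and 0 lower in each, against 0.768% of all genes higher in EV, 2.55% in RelA-WT, 1.41% in RelA-dTA1 and 0.534% in RelA-dTAD, and 0.0585%, 0.695%, 0.212% and 0.0146% lower. With the set as a replicate block, 1 member was also called lower at 1 h in RelA-WT, where 4.49% of all genes were called higher and 2.31% lower, and 1 in RelA-dTA1, where 3.29% and 1.38% were. These were Nob1, the nuclease that makes the final cut of 18S rRNA, with a blocked log2 change of -0.33 (adjusted p = 0.0289, edgeR), and Polr1b with -0.35 (adjusted p = 0.0334, edgeR). The call of Myc at 1 h was lost without replicate 1 of RelA-dTA1 and without either replicate of EV, RelA-WT or RelA-dTAD. At 0.5 h it was lost without replicate 2 of RelA-WT and without either replicate of the other 3 constructs. The log2 change over these fits stayed between 0.86 and 1.57.

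At 8 h the levels of Myc in the constructs had moved apart. At 3 h Myc was at 145 and 149 CPM in EV and 119.6 and 110.1 CPM in RelA-dTAD. In RelA-WT it was at 90.6 and 92.7 CPM and in RelA-dTA1 at 103 and 88.1 CPM. The log2 change from 0 h was 0.67 ± 0.23 in RelA-WT (adjusted p = 0.0516, and 0.0171 with the replicate block, both edgeR) and 1.12 ± 0.23 in RelA-dTAD (adjusted p = 0.00703, edgeR). It was 0.86 ± 0.23 in RelA-dTA1 (adjusted p = 0.0135) and 1.52 ± 0.24 in EV (adjusted p = 0.000279, both edgeR). The calls were lost without either replicate of RelA-dTAD or RelA-dTA1 and without replicate 2 of EV. The difference between the RelA-dTAD and RelA-WT responses of Myc at 3 h was 0.45 ± 0.33 and did not pass the test (adjusted p = 0.858, edgeR). At 8 h Myc was at 398 and 393 CPM in EV and 375 and 375 in RelA-dTAD, against 236 and 161 in RelA-dTA1 and 173 and 145 CPM in RelA-WT. These EV and RelA-dTAD libraries at 8 h lay above every other library of these 4 constructs. The changes from 0 h at 8 h were 2.84 ± 0.24 for RelA-dTAD, 1.902 ± 0.24 for RelA-dTA1 and 1.46 ± 0.23 for RelA-WT, with adjusted p values from edgeR of 1.44e-09, 9.83e-07 and 4.30e-05.

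**Figure D1:**
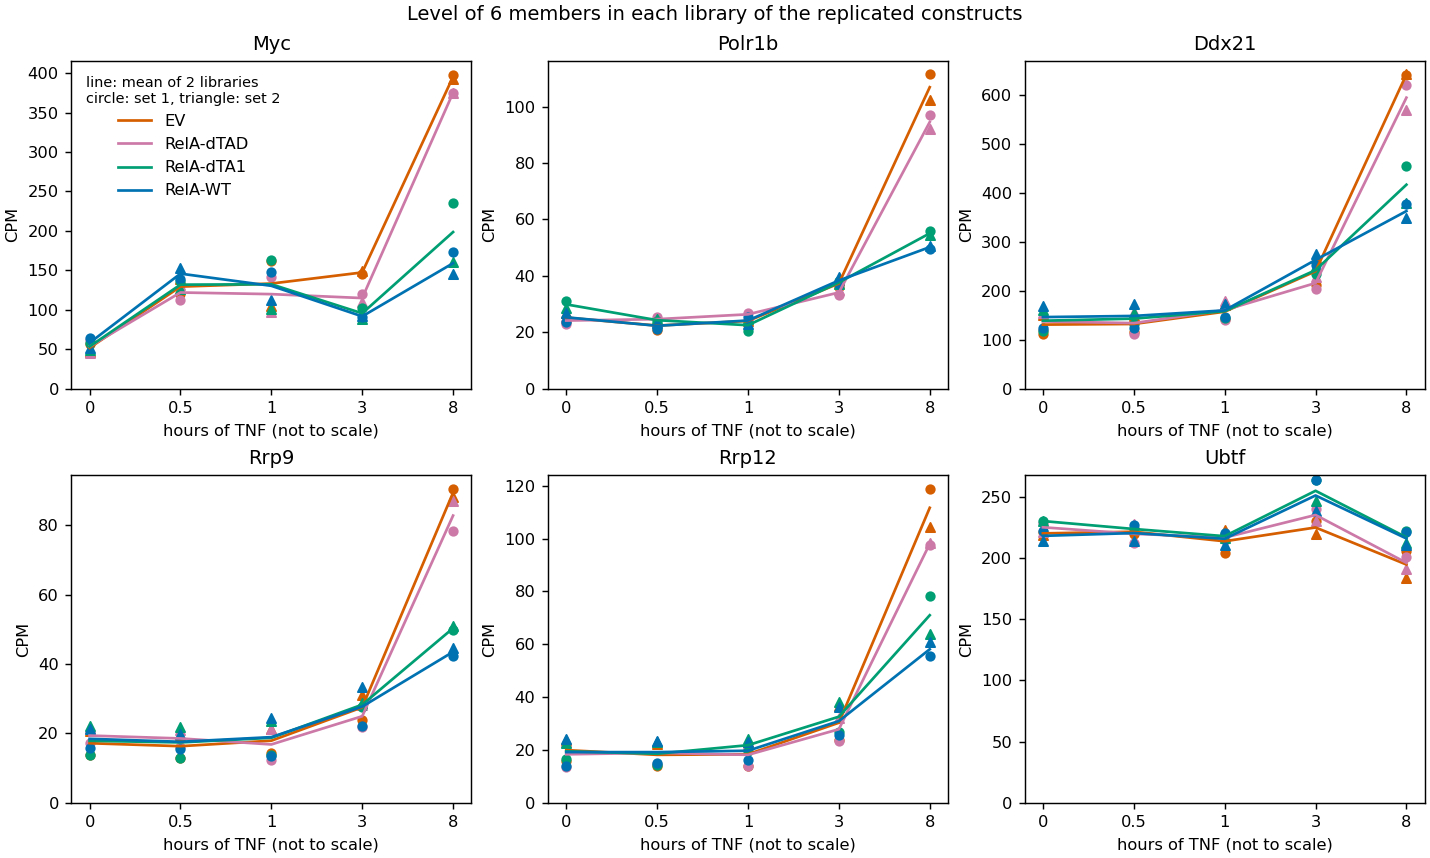
CPM (vertical axis, linear from 0) of 6 members against hours of TNF (categories, not to scale) in the 4 replicated constructs. Circles are set 1 libraries, triangles set 2 libraries and lines their means; Myc is above its 0 h level from 0.5 h, Polr1b, Ddx21, Rrp9 and Rrp12 are highest at 8 h, and Ubtf stays between 183 and 264 CPM.

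The ribosome biogenesis genes followed later. At 3 h, 16 of 38 members rose and 0 fell in RelA-WT (10.5% of all genes higher, 5.74% lower), with a median log2 change of 0.30 over the members against -0.02 over all genes. In RelA-dTA1 20 rose and 0 fell (9.58% and 4.87% of all genes). In RelA-dTAD 8 rose and 0 fell (2.28% and 0.629% of all genes), or 17 with the replicate block, where 7.38% of all genes were called higher and 5.06% lower. In EV 14 rose and 0 fell (3.02% and 0.922% of all genes), or 27 with the block, where 9.23% and 7% were. The members' medians at 3 h were 0.37 in RelA-dTA1, 0.33 in RelA-dTAD and 0.40 in EV, so the order of these counts is not the order of the medians. The counts fell to 5 and 9 without replicate 1 or 2 of RelA-WT, to 2 and 7 without those of RelA-dTA1, to 0 without either of RelA-dTAD, and to 1 and 2 without those of EV. The shares of all genes called in those fits without a replicate are not given. At 1 h the median over the members was between -0.03 and 0.05 in the 4 constructs.

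Polr1b (chromosome 2, 129100995 to 129126594, plus strand) rose by 3 h in each construct. At 3 h it was at 37.1 and 39.6 CPM in RelA-WT, from 23.8 and 26.8 CPM at 0 h, 21.2 and 23.4 at 0.5 h and 25.6 and 22.8 at 1 h. In RelA-dTAD it went from 22.9 and 25.3 CPM at 0 h through 25.6 and 23.7 at 0.5 h and 27.0 and 25.8 at 1 h to 33.1 and 35.1 CPM at 3 h. In both constructs the 3 h libraries lay above all earlier ones. The log2 change at 3 h was 0.60 ± 0.10 in RelA-WT, 0.35 ± 0.10 in RelA-dTA1, 0.50 ± 0.10 in RelA-dTAD and 0.57 ± 0.10 in EV, with edgeR adjusted p values of 0.000104, 0.0161, 0.00486 and 0.00117. The calls in RelA-dTA1, RelA-dTAD and EV were lost without either of that construct's replicates, and those in RelA-dTA1 and RelA-dTAD also without the low-count filter (edgeR adjusted p = 0.333 and 0.132). In RelA-WT, the other 3 h calls with the largest changes were Rrs1 (0.96 ± 0.28), Ddx21 (0.85 ± 0.21), Wdr43 (0.84 ± 0.12) and Nhp2 (0.77 ± 0.23), and they came from 3 roles.

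At 8 h most members had risen in every construct tested, with the highest of the 3 tested medians in RelA-dTAD. In RelA-WT 32 of 38 rose and 0 fell, where 15.8% of all genes were higher and 11.6% lower, with a median log2 change of 0.80 over the members. The count was 34 with the replicate block, where 23.1% of all genes were higher and 21.7% lower, and 18 without replicate 1 of RelA-WT. In RelA-dTA1 33 rose and 0 fell (19.4% and 15.3% of all genes), with a median of 0.92. In RelA-dTAD 34 rose and 1 fell (24.4% and 22.5% of all genes), with a median of 1.23. Summed neural markers moved with time too, from 190.4 to 217 CPM at 0 h to 100.5 to 137 CPM at 8 h over the 4 replicated constructs. Most of this was Map2, at 162 to 198.5 CPM at 0 h and 71.7 to 84.3 CPM at 8 h, while 4 of the 6 were under 1 CPM in every library, and their part in the members' changes was not tested. The medians over all genes were -0.03 in RelA-WT and -0.02 in RelA-dTA1 and RelA-dTAD. The roles are described in turn from RelA-dTAD, with the member of the largest change in each given by library. The changes of all members at 8 h are plotted by role, with the standard error of each.

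**Figure D2:**
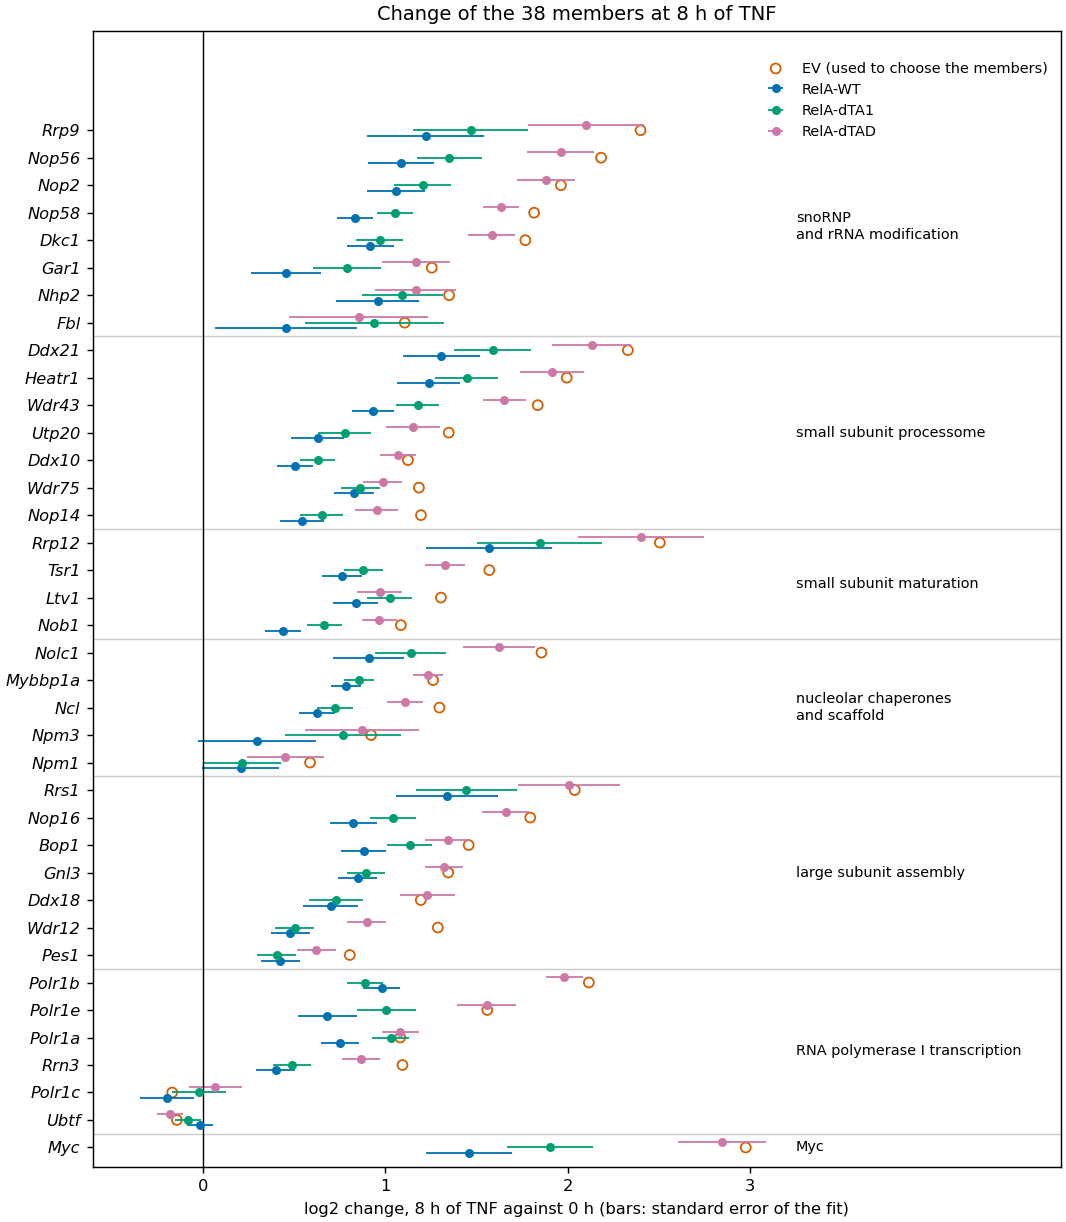
Log2 change from 0 h to 8 h of TNF (horizontal axis) for each member (rows, grouped by role), as points with standard errors of the fit for RelA-WT, RelA-dTA1 and RelA-dTAD and as open circles without error for EV. The RelA-dTAD points lie to the right of RelA-WT for 37 of 38 members, and Ubtf and Polr1c lie near 0 in each construct.

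Of the 6 genes of RNA polymerase I transcription, 4 rose, 1 fell and 1 was not called in RelA-dTAD at 8 h. In RelA-dTAD, Polr1b went from 22.9 and 25.3 CPM to 97.1 and 92.0 CPM, in RelA-dTA1 from 31.2 and 28.6 to 55.8 and 54.4, and in RelA-WT from 23.8 and 26.8 to 49.7 and 50.7 CPM. No 8 h library of RelA-dTAD overlapped with those of RelA-WT or RelA-dTA1. Its log2 change was 1.98 ± 0.10 for RelA-dTAD (adjusted p = 4.06e-13), 0.89 ± 0.10 for RelA-dTA1 and 0.98 ± 0.10 in RelA-WT (adjusted p = 7.66e-08, all edgeR). Polr1e, the subunit of the polymerase heterodimer that helps initiation, rose by 1.56 ± 0.16 in RelA-dTAD and 0.68 ± 0.16 in RelA-WT. Polr1a, the largest and catalytic subunit, rose by 1.08 ± 0.10 and 0.75 ± 0.10, and Rrn3 by 0.87 ± 0.10 and 0.40 ± 0.10. Polr1c, a subunit shared with RNA polymerase III, was at 48.5 and 43.6 CPM at 0 h and 47.7 and 47.4 CPM at 8 h in RelA-dTAD and did not pass the test in any of these constructs at 8 h. Ubtf, which keeps ribosomal DNA in an open state, went from 229 and 222 CPM to 201 and 191 CPM in RelA-dTAD and fell by the test, with -0.18 ± 0.07 on the log2 scale (adjusted p = 0.0442, edgeR). That call was lost without either RelA-dTAD replicate, with DESeq2 size factors and without the low-count filter.

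Among the 5 nucleolar chaperones and scaffold proteins, 4 rose in RelA-dTAD and 3 each in RelA-WT and RelA-dTA1. Nolc1, which chaperones snoRNPs to the nucleolus, changed most in RelA-dTAD. In RelA-dTAD it went from 74.1 and 94.7 CPM to 262 and 253 CPM, and in RelA-WT it went from 75.4 and 104 CPM to 177 and 162 CPM. In RelA-dTA1 it went from 74.3 and 94.5 CPM to 203 and 169 CPM. Set 1 started lower than set 2 and ended higher in all of them. The log2 changes were 1.62 ± 0.19 for RelA-dTAD, 1.14 ± 0.19 for RelA-dTA1 and 0.91 ± 0.19 in RelA-WT. Ncl, which binds pre-rRNA and was the member with the most reads, rose by 1.11 ± 0.10 in RelA-dTAD and 0.63 ± 0.10 in RelA-WT, and Mybbp1a, a nucleolar Myb-binding protein, by 1.23 ± 0.08 and 0.78 ± 0.08. Npm3, a relative of nucleophosmin that was called in RelA-dTA1 with the replicate block alone (adjusted p = 0.0626 without it and 7.75e-05 with it, edgeR), rose in RelA-dTAD (0.87 ± 0.31, adjusted p = 0.0252, edgeR) and had a change of 0.30 ± 0.32 in RelA-WT, which did not pass. Npm1 itself was not called in any of the 3, with 0.45 ± 0.21 in RelA-dTAD (adjusted p = 0.0836, edgeR). With the replicate block it was called higher in all 3, with edgeR adjusted p values of 4.13e-08 in RelA-dTAD, 0.00273 in RelA-dTA1 and 0.00461 in RelA-WT. Its RelA-dTAD libraries at 8 h were at 501 and 433 CPM against 401 and 292 CPM at 0 h, higher in set 1 both times.

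Among the 8 snoRNP and rRNA modification genes, 7 rose in RelA-dTAD, 7 in RelA-dTA1 and 6 in RelA-WT. Rrp9, a U3 snoRNP protein, changed most. In RelA-dTAD it went from 17.2 and 21.5 CPM to 78.5 and 87.1 CPM. In RelA-dTA1 it went from 13.6 and 22.1 CPM to 49.7 and 51.0 CPM, and in RelA-WT it went from 15.7 and 21.2 CPM to 42.4 and 44.7 CPM. The log2 changes were 2.102 ± 0.32, 1.47 ± 0.32 and 1.22 ± 0.32 in that order. The box C/D core proteins Nop56 and Nop58 rose by 1.96 ± 0.18 and 1.64 ± 0.10 in RelA-dTAD and by 1.09 ± 0.18 and 0.83 ± 0.10 in RelA-WT. Nop2 rose by 1.88 ± 0.16 and 1.06 ± 0.16. Dkc1, the pseudouridine synthase of the box H/ACA snoRNPs, rose by 1.58 ± 0.13 and 0.92 ± 0.13, and its partner Nhp2 by 1.17 ± 0.22 and 0.96 ± 0.23. Gar1, of the same particle, rose in RelA-dTAD (1.17 ± 0.19) and RelA-dTA1 (0.79 ± 0.19) and was at 0.46 ± 0.19 in RelA-WT without passing (adjusted p = 0.0786, and 0.00350 with the block, edgeR). Fbl, with few reads, was called in none of the 3, with 0.85 ± 0.38 in RelA-dTAD (adjusted p = 0.0675, edgeR). With the block it was called higher in RelA-dTAD (adjusted p = 0.000313) and RelA-dTA1 (adjusted p = 0.000113, both edgeR).

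All 7 members of the small subunit processome rose in each of the 3 constructs. Ddx21, an RNA helicase found at both ribosomal DNA and snoRNAs, changed most. In RelA-dTAD it went from 120.3 and 155 CPM to 620.4 and 570.2 CPM, and in RelA-dTA1 it went from 118 and 160.1 CPM to 455 and 379.6 CPM. In RelA-WT it went from 124 and 169 CPM to 378 and 349 CPM. The RelA-dTAD libraries at 8 h were above those of the other 2, and the changes were 2.13 ± 0.21, 1.59 ± 0.21 and 1.31 ± 0.21. Heatr1, which links transcription and processing of pre-rRNA, rose by 1.91 ± 0.17 in RelA-dTAD and 1.24 ± 0.17 in RelA-WT, and Wdr43 by 1.65 ± 0.12 and 0.93 ± 0.12. The other 4 (Utp20, Ddx10, Wdr75 and Nop14) rose by 0.95 to 1.15 in RelA-dTAD and 0.51 to 0.83 in RelA-WT.

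All 7 large subunit assembly factors also rose in each of the 3 constructs. Rrs1, which brings the 5S RNP into the pre-60S particle, changed most. In RelA-dTAD it went from 32.2 and 46.5 CPM to 154 and 162 CPM, and in RelA-dTA1 it went from 28.3 and 46.7 CPM to 109 and 97.6 CPM. In RelA-WT it went from 30.5 and 50.1 CPM to 102 and 105 CPM. The changes were 2.01 ± 0.28, 1.44 ± 0.28 and 1.34 ± 0.28, with a larger standard error than most members, and its sets differed at 0 h. Nop16 rose by 1.66 ± 0.13 in RelA-dTAD and 0.82 ± 0.13 in RelA-WT, and Gnl3 (nucleostemin, a nucleolar GTPase) by 1.32 ± 0.11 and 0.85 ± 0.11. The 3 subunits of the PeBoW complex changed unequally: Bop1 by 1.34 ± 0.12, Wdr12 by 0.90 ± 0.11 and Pes1 by 0.62 ± 0.11 in RelA-dTAD, and by 0.88 ± 0.12, 0.48 ± 0.11 and 0.42 ± 0.11 in RelA-WT. Ddx18, a helicase, rose by 1.23 ± 0.15 and 0.70 ± 0.15.

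All 4 small subunit maturation factors rose in each construct. Rrp12 changed most. In RelA-dTAD it went from 13.7 and 22.9 CPM to 97.7 and 98.4 CPM. In RelA-dTA1 it went from 16.4 and 22.5 CPM to 78.2 and 63.8 CPM, and in RelA-WT it went from 14.1 and 24.3 CPM to 55.5 and 60.7 CPM. The changes were 2.40 ± 0.35, 1.85 ± 0.34 and 1.57 ± 0.35, and it was within the 2 largest changes of the members in each of these constructs. Tsr1, a GTPase-like factor on the late pre-40S particle, rose by 1.33 ± 0.11 in RelA-dTAD and 0.76 ± 0.11 in RelA-WT, and Nob1 by 0.97 ± 0.10 and 0.44 ± 0.10. Ltv1, released before the last cut, rose by 0.97 ± 0.12 and 0.84 ± 0.12.

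The difference between the RelA-dTAD and RelA-WT responses (the change from 0 h in one minus that in the other) was tested directly. At 8 h the rise was larger in RelA-dTAD for 16 of 38 members and smaller for 0, where 6.45% of all genes were larger and 5.8% smaller, and with the replicate block for 29, where 14.9% were larger and 12.9% smaller. The median difference over the members was 0.55 on the log2 scale (0.53 in set 1 and 0.54 in set 2) against 0.01 over all genes, and 37 of 38 were positive. The 16 were Myc, the RNA polymerase I genes Polr1b, Polr1e and Rrn3, the nucleolar proteins Ncl and Mybbp1a, the snoRNP genes Nop56, Nop58, Nop2 and Dkc1, the processome genes Wdr43 and Ddx10, the large subunit factors Nop16 and Gnl3, and the small subunit factors Tsr1 and Nob1, so every role was among them. The count was 2 without replicate 2 of RelA-WT and 4 without replicate 1 of RelA-dTAD. The share of all genes called in those fits without a replicate is not given. The Krt19 and Rela levels given above also differed between these constructs at 8 h, and their part was not tested.

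Myc and Polr1b had the largest differences. Myc was 1.39 ± 0.33 higher in RelA-dTAD (adjusted p = 0.00550, edgeR), with 1.17 in set 1 and 1.57 in set 2. This call was lost without either replicate of RelA-WT and without replicate 2 of RelA-dTAD, with log2 differences of 1.34, 1.38 and 1.15 and edgeR adjusted p values of 0.0547, 0.0644 and 0.0890. Polr1b was 1.00 ± 0.14 higher (adjusted p = 2.66e-05, edgeR), with 1.02 in set 1 and 0.94 in set 2. Nop58 had 0.80 ± 0.14 (adjusted p = 0.000256) and Nop16 0.83 ± 0.18 (adjusted p = 0.00265, both edgeR). The members with the largest changes from 0 h were not all called here: Rrp12 had 0.83 ± 0.48, Rrp9 0.88 ± 0.45 and Rrs1 0.67 ± 0.39, with edgeR adjusted p values of 0.311, 0.230 and 0.315. With the block Rrp9 and Rrs1 were called (adjusted p = 0.00581 and 0.0243, edgeR). The lowest differences were those of Ubtf (-0.16 ± 0.10), Ltv1 (0.13 ± 0.17) and Wdr75 (0.16 ± 0.15).

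At 3 h, 0 of 38 members differed in response between RelA-dTAD and RelA-WT in either direction by edgeR, where 0.6% of all genes were larger and 2.5% smaller in RelA-dTAD. At an unadjusted p under 0.05 the count was 0 larger and 1 smaller, and DESeq2 called 0. With the replicate block 1 was smaller, where 5.53% of all genes were. This was Tsr1 (blocked log2 difference -0.44, adjusted p = 0.0264, edgeR), at 149 and 128 CPM in RelA-WT and 110.1 and 106 CPM in RelA-dTAD at 3 h. The median difference at 3 h was -0.06.

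By the median change, RelA-dTA1 lay between RelA-WT and RelA-dTAD and nearer to RelA-WT. Its response at 8 h differed from that of RelA-WT for 0 of 38 members by edgeR, by DESeq2 and at an unadjusted p under 0.05, and 0% of all genes were called. The median difference was 0.16, from -0.09 to 0.48, and 35 of 38 were positive. For Myc the difference was 0.45 ± 0.33 and for Polr1b -0.09 ± 0.14. Polr1b started higher in RelA-dTA1, with means at 0 h of 29.9 CPM there, 25.3 in RelA-WT and 24.1 in RelA-dTAD. Its means at 8 h were 55.1, 50.2 and 94.6 CPM in that order, so its start enters its differences of response. At 3 h the 3 counts were 0 as well, again with 0% of all genes called, and the median difference was 0.0026. Against RelA-dTAD at 8 h, 4 members rose less in RelA-dTA1 and 0 rose more, where 2.81% of all genes were smaller and 3.13% larger, and 19 rose less with the block, where 10.2% did. The 4 were Polr1b (-1.09 ± 0.14, adjusted p = 1.99e-05), Nop58 (-0.58 ± 0.14, 0.00951), Nop16 (-0.62 ± 0.18, 0.0404) and Dkc1 (-0.62 ± 0.18, 0.0407, all edgeR). Myc was -0.94 ± 0.32 (adjusted p = 0.0932, and 0.0161 with the block). The count was 7 and 1 without replicate 1 or 2 of RelA-dTA1 and 1 and 2 without those of RelA-dTAD.

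In EV, the cells whose Polr1b rise chose the set, the log2 changes of the members at 8 h ran from -0.17 to 2.98, with a median of 1.35, and are given with no test. Polr1b went from 23.7 and 26.7 CPM to 112 and 102 CPM and Myc from 56.7 and 46.8 to 398 and 393 CPM. Ubtf was at 206 and 183 CPM at 8 h and 221 and 219 CPM at 0 h, and Polr1c was at 41.3 and 45.0 CPM at 8 h, from 55.05 and 45.0 CPM at 0 h. The EV response was higher than that of RelA-dTAD by a median of 0.16 in set 1 and 0.09 in set 2. It was higher for 29 of 38 members in set 1 and for 30 in set 2. For Myc the differences were 0.21 and 0.01. These values describe the choice of the set.

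The mutants with 1 library per time have no replicate check, so they are given as log2 changes within 1 set, with the number of members past 1.5-fold higher beside the share of all 15090 genes past it. In set 1, 35 of 38 members were past 1.5-fold higher at 8 h in RelA-DB (22.7% of all genes) and 35 in RelA-dCterm (22.5%), against 29 in RelA-WT (16.1%), 34 in RelA-dTA1 (18%), 35 in RelA-dTAD (20.8%) and 35 in EV (21.7%). The medians were 1.46 in RelA-DB, 1.41 in RelA-dCterm, 1.42 in RelA-dTAD and 1.43 in EV, against 1.08 in RelA-dTA1 and 0.97 in RelA-WT. Myc at 8 h was at 406 CPM in RelA-DB and 399 in RelA-dCterm, from 62.5 and 60.2 CPM at 0 h, and Polr1b was at 107 and 105. Both were thus nearer to RelA-dTAD than to RelA-WT of the same set, for these 2 genes and for the median. The EV values at 8 h, which the choice of the set used, stand beside them as a description only.

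In set 2 the medians of the TA2 mutants without dTA1 in their name lay near that of RelA-WT, and the medians of those with dTA1 lay near that of RelA-dTAD. Past 1.5-fold higher at 8 h were 21 members in RelA-WT (12% of all genes), 26 in RelA-TA2_CI (13.6%), 22 in RelA-TA2_S467A (11.4%), 26 in RelA-TA2_CI_S467A (13.4%) and 27 in RelA-dTA1 (12.9%). They were 36 in RelA-TA2_CI-dTA1 (18.3%), 35 in RelA-TA2_CI_S467A-dTA1 (15.8%), 35 in RelA-dTAD (18.9%) and 36 in EV (19.6%). The medians were 0.64 in RelA-WT, 0.69 in RelA-TA2_CI, 0.67 in RelA-TA2_S467A, 0.75 in RelA-TA2_CI_S467A and 0.76 in RelA-dTA1, and 1.13, 1.07, 1.13 and 1.18 in the other 4 in the order above. Myc was at 165, 139.5 and 171 CPM at 8 h in the 3 mutants without dTA1, in the order RelA-TA2_CI, RelA-TA2_S467A and RelA-TA2_CI_S467A. It was at 335 CPM in RelA-TA2_CI-dTA1 and 302 CPM in RelA-TA2_CI_S467A-dTA1. At 0 h the 5 libraries were between 47.9 and 51.6 CPM. Polr1b was at 54.5, 47.9 and 56.2 CPM at 8 h in the first 3 and at 82.8 and 80.7 CPM in the other 2, without overlap.

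The change on adding dTA1 can be set side by side in 3 backgrounds of set 2, each from 1 library per time and untested. On RelA-WT it moved the 8 h log2 change of the members by a median of 0.10, and 31 of 38 were higher. On RelA-TA2_CI it moved it by 0.51, and 37 of 38 were higher. On RelA-TA2_CI_S467A it moved it by 0.31, and 38 of 38 were higher. For Myc the 3 values were 0.22, 1.08 and 0.75, and for Polr1b 0.01, 0.43 and 0.43. With the TA2 changes alone, the median of the member differences from RelA-WT was 0.10 (CI), 0.01 (S467A) and 0.14 (both). On the RelA-dTA1 background the median of the member differences was 0.50 (CI) and 0.37 (both). These medians over differences are not the differences between the medians above. Against RelA-dTAD, RelA-TA2_CI-dTA1 differed by a median of 0.03, but Polr1b was -0.38 and Myc -0.31. RelA-TA2_CI_S467A-dTA1 differed from it by a median of -0.09, with 28 of 38 members lower, and Polr1b was -0.34 and Myc -0.47. Several of these differences share a library, since RelA-WT and RelA-dTA1 of set 2 enter more than 1 of them. The same differences over all genes are not given. The counts of members higher or lower therefore have no background beside them.

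**Figure D3:**
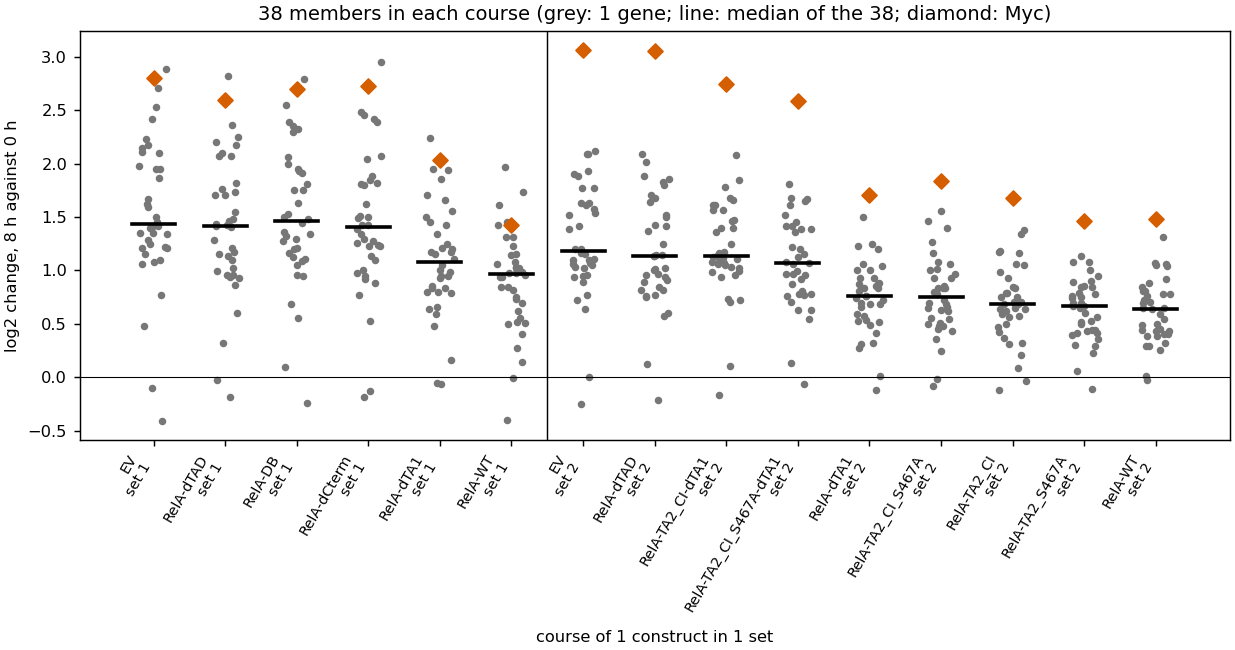
Log2 change from 0 h to 8 h (vertical axis) of the 38 members in each of the 15 courses (horizontal axis, set 1 left and set 2 right of the line); grey points are the 37 members other than Myc, bars the median of the 38 and diamonds Myc. The medians of set 2 fall into 1.07 to 1.18 for the 4 courses on the left of that set and 0.64 to 0.76 for the 5 on its right.

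**Figure D4:**
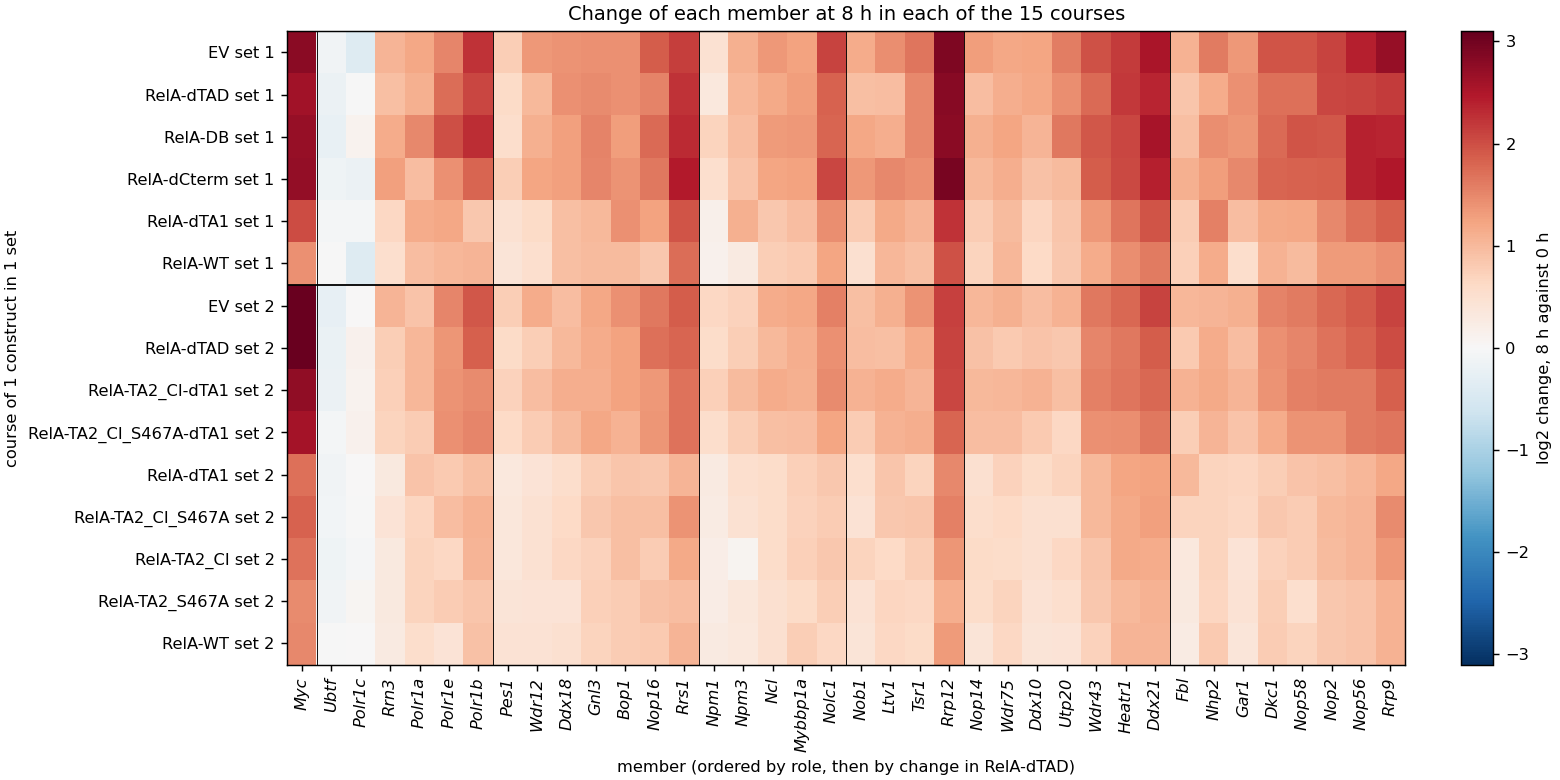
Log2 change from 0 h to 8 h (colour, scale at right) of each member (columns, by role) in each course (rows, set 1 above the line and set 2 below). Within each set, rows of EV, RelA-dTAD, RelA-DB, RelA-dCterm and the 2 TA2 mutants with dTA1 are darker red than those of RelA-WT and the TA2 mutants without dTA1; Ubtf and Polr1c are pale in every row.

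Other genes of the same pathway were counted as whole lists at 8 h in RelA-dTAD, against the 24.4% of all genes called higher and 22.5% lower there. Of 9 other RNA polymerase I genes 6 rose, led by Twistnb, a polymerase I stalk subunit (1.58 ± 0.14), and of 41 other processome and small subunit factors 37 rose, led by Nol10 (1.77 ± 0.22) and Pwp2 (1.70 ± 0.13). Of 53 other large subunit factors 46 rose, led by Mdn1, the AAA ATPase that remodels pre-60S particles (2.08 ± 0.27), and Rrp1b (1.94 ± 0.11). None of these 3 lists had a member called lower. In RelA-WT at 8 h, where 15.8% of all genes were higher and 11.6% lower, the counts higher were 2, 31 and 39, and the RelA-dTAD response was larger than that of RelA-WT for 2, 8 and 17 genes of these lists, beside 6.45% of all genes. In the RNA exosome, which trims pre-rRNA, 8 of 12 rose in RelA-dTAD, led by Exosc1 (1.35 ± 0.24), against 3 higher and 1 lower in RelA-WT. RNA polymerase III, which makes 5S rRNA and tRNA, was mixed, with 8 of 20 higher and 5 lower, from Polr3e (1.40 ± 0.31) to Polr3gl (-1.18 ± 0.15).

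Among the 76 of 79 ribosomal protein genes that passed the low-count filter, 8 rose and 0 fell in RelA-dTAD at 8 h, below the share of all genes, and 1 rose in RelA-WT. Their median change was 0.12 in RelA-dTAD and -0.05 in RelA-WT. Many of these genes have near-identical processed copies in the genome, so their counts are uncertain. Of 28 metabolic genes linked to Myc, 20 rose and 0 fell in RelA-dTAD and 13 rose in RelA-WT. They were led by Ctps, which makes CTP (1.97 ± 0.16), Srm, a spermidine synthase (1.73 ± 0.25), and Ppat, the first enzyme of purine synthesis (1.56 ± 0.12). In the Myc network itself, 7 of 14 genes rose and 5 fell in RelA-dTAD. Mycn rose by 2.15 ± 0.55, while Mxd3 and Mxd4, which pair with Max as repressors, changed by -2.06 ± 0.36 and -1.81 ± 0.09. For Mxd4 the fall was larger in RelA-dTAD than in RelA-WT (-0.73 ± 0.12, adjusted p = 0.000184, edgeR), and the response of Mnt, another Max partner and repressor that is named after its value was seen, was also lower in RelA-dTAD (-0.52 ± 0.17, adjusted p = 0.0410, edgeR).

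Whether reads were counted by strand is not given in the sources used here, and 14 of the 38 members overlap a gene on the other strand, Polr1e, Bop1, Gnl3, Dkc1 and Nop56 among them, so reads of such pairs may not be told apart. Ncl, Nop56, Nop58, Gnl3, Wdr43, Tsr1 and Dkc1 also overlap genes on the same strand, which counting by strand would not separate. The part of these overlaps in the results was not tested. Polr1b and Myc overlap no gene on either strand.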

How the data were processed

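Per the submitters' processing notes, reads were handled with cutadapt 1.9.1, STAR, featureCounts 1.5.0 and DESeq2 on mm10. The strand setting and annotation are not given in the sources used here. The deposited tables of each set hold counts, which the authors made as whole reads per gene, with gene lengths.

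From these, CPM (counts scaled to a common library total) and tests were computed. The 40 libraries of the 4 replicated constructs were fitted together as 20 groups with edgeR 4.0.16 in R 4.3.3 (TMM scaling, filterByExpr, robust quasi-likelihood), leaving 13665 genes, 20 residual degrees of freedom and Benjamini-Hochberg adjustment over all genes at a threshold of 0.05. The script was tested on simulated data. A difference of responses is an interaction term. Constructs with 1 library per time got no test, and their log2 changes, with a prior count of 2, are over 15090 genes. Alternatives were a replicate block, DESeq2 1.42.0, DESeq2 size factors, no low-count filter, another prior count, 2-fold in place of 1.5-fold, and leaving out each replicate.

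Replicate 1 is set 1 and replicate 2 is set 2, so a replicate number marks a shared set. Same-numbered libraries deviated together from their group means in all 190 pairs of groups, with r from 0.357 to 0.668. The main fit has no term for the set, so its tests leave this pairing out. Only the fits with the replicate block include it. For the difference between RelA-dTAD and RelA-WT at 8 h, they called 29 members in place of 16.

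The members and all gene lists were chosen with earlier results of these data known. Every member could be named. Myc, Polr1b and, in each role, the member with the largest change in RelA-dTAD at 8 h are given by library. From each other list at most 3 called genes with the largest change there are named. A count of few reads has a wide counting error, as for Fbl.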

Additional observations from a re-analysis of the deposited data

Results flagged for a closer look

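Responses that differed between constructs by a direct test are listed here. At 8 h, 16 of 38 members rose more in RelA-dTAD than in RelA-WT by edgeR's interaction test, where 6.45% of all genes did. Leaving out any replicate of either construct, with all its times, lowered that count, as given above. Among the 16, Polr1b had a log2 difference of 1.00. Myc had 1.39, a call that was lost without either replicate of RelA-WT and without replicate 2 of RelA-dTAD. In the same test of RelA-dTA1 against RelA-dTAD, 4 members rose less in RelA-dTA1, where 2.81% of all genes did. Without a replicate of either construct that count moved up or down, as given above. In the main fit Polr1b had a log2 difference of -1.09 in this comparison, and its 0 h level was higher in RelA-dTA1, as given above. Both tests use the RelA-dTAD libraries.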

How the results depend on the processing

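Of 582 values recomputed under another setting, 507 kept their direction and their side of the threshold or moved little, and 0 reversed. With the replicate block, 17 members rose at 3 h in RelA-dTAD and 27 in EV, 1 fell at 1 h in RelA-WT and 1 in RelA-dTA1, and the response of RelA-dTAD exceeded that of RelA-WT for 29 at 8 h and fell short for 1 at 3 h. The block gave 19 members that rose less in RelA-dTA1 than in RelA-dTAD at 8 h. Other calls of named members that it changed stand beside their results, and it changed no other call given with a p. With DESeq2 size factors, 1 member fell at 1 h in RelA-dTA1 and 0 at 8 h in RelA-dTAD, and without the low-count filter 0 fell there. Past 2-fold were 8 members in RelA-TA2_CI, 4 in RelA-TA2_S467A, 10 in RelA-TA2_CI_S467A and 20 in RelA-TA2_CI_S467A-dTA1. The share of all genes past 2-fold is not given, so these counts show only how the member counts move with the threshold.

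Leaving out either replicate of a construct, the lone library being assumed to vary like the other groups, gave these ranges of members called higher: at 1 h 0 to 0 in RelA-WT, RelA-dTAD and EV and 0 to 1 in RelA-dTA1; at 3 h 5 to 9 in RelA-WT, 2 to 7 in RelA-dTA1, 0 to 0 in RelA-dTAD and 1 to 2 in EV; at 8 h 18 to 31 in RelA-WT. The count lower in RelA-dTAD at 8 h was 0 to 0. The larger response of RelA-dTAD over RelA-WT at 8 h held for 2 to 15 members, and the smaller one of RelA-dTA1 against RelA-dTAD for 1 to 7. Of 308 values of Myc and Polr1b, 30 lost their call, 28 of them by leaving out a replicate, and 7 gained one. The causes were not tested. For every fit without a replicate, the share of all genes called is not given beside the count of members. Set 1 is shallower than set 2. The sets also differed in the gene entry Gm42418, with 0.00133 to 0.00959% of reads in set 1 and 0.117 to 3.21% in set 2. The part of these differences in the results was not tested.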
